A study of Mus musculus with 21 samples.

Results

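The Eya family comprises 4 genes, Eya1, Eya2, Eya3 and Eya4, which were chosen by name and not by any measured value. They were 4 of the 18193 genes that a probe set names alone on this array, and 12 probe sets named them, 3 for Eya1, 1 for Eya2, 4 for Eya3 and 4 for Eya4. Of the 12, 8 passed the filter on low values, and the brightest kept probe set on average stood for a gene. RNA came from rostral cerebral cortex of mouse embryos on embryonic day 14, with 1 Affymetrix array for each of 21 samples. The study compared 3 mouse lines that carry different mutations of Pax6, each with control littermates that the labels call wild type.

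The Sey line gave 4 arrays of Pax6 Sey (Small-eye) mutants and 3 of their controls, all on a C57BL/6J x DBA/2J (B6D2F1) hybrid background. The Leca4 line gave 3 mutant and 4 control arrays and the Leca2 line 4 mutant and 3 control arrays, all on a 129 S6 background. The labels state neither the zygosity of the mutants nor the position of the lesions. From general knowledge, not checked here, Sey truncates the Pax6 protein, Leca4 alters the PAI subdomain of its paired domain and Leca2 the RED subdomain. The arrays of a group are labelled as biological replicates, so p-values measure the spread between these samples. Their number limits the precision.

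Eyes absent (Eya) proteins are transcription cofactors that do not bind DNA themselves. They join homeodomain proteins of the sine oculis family on their target genes, where Dach proteins act as further cofactors, and they carry a tyrosine phosphatase domain at the C-terminal end. In the Drosophila eye the homologues of Pax6, Eya, sine oculis and Dach genes form a network of eye specification, and in mammals Eya1 is best known from ear, kidney and muscle development and Eya4 from the inner ear and heart. What separate Eya genes do in the embryonic cortex is less well described.

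Pax6 itself, the mutated gene, was higher in the mutants of every line. It measured 10.94 to 11.34 in Sey mutants against 10.55 to 10.64 in controls, 11.86 to 12.20 against 11.41 to 11.68 in Leca4 and 12.04 to 12.26 against 11.12 to 11.31 in Leca2, all on the log2 scale. A transcript level does not check which allele an embryo carried. Array medians were 6.03 to 6.07 in the Sey line, 6.25 to 6.26 in Leca4 and 6.11 to 6.18 in Leca2, so levels set across lines below may include a difference in normalization. Cortical markers (9 tested, among them Emx1, Emx2, Lhx2 and Tbr1) averaged between 10.6 and 11.6 per array in every group, so transcripts that define the labelled tissue were present. Sex, read from Xist, Eif2s3y and Kdm5d, was uneven, with 1 male among 4 Sey mutants and 3 males among 3 Sey controls. In Leca4 there were 2 males among 3 mutants and 3 among 4 controls, and in Leca2 2 males among 4 mutants and 0 among 3 controls. In bulk tissue, more cells of a type and more RNA per cell cannot be told apart.

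Eya2 and Eya4 rose in both Sey and Leca4 mutants, Eya1 rose in Sey mutants, and no Eya gene was called in Leca2 mutants. Here "rose" means an adjusted p under 0.05 in limma, over 13850 genes. In Sey, 3 of 4 Eya genes were called, where 20.2% of all tested genes were (10.7% as higher). In Leca4, 2 of 4 were called, where 5.62% of all genes were (3.39% as higher). In Leca2, limma called 0 of 4, and 0 of 4 had an unadjusted p under 0.05, where 0.477% of all genes were called. Eya2 passed the filter only through Sey and Leca4 mutant arrays and so had to differ in some line, and these counts are a description.

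**Figure D1:**
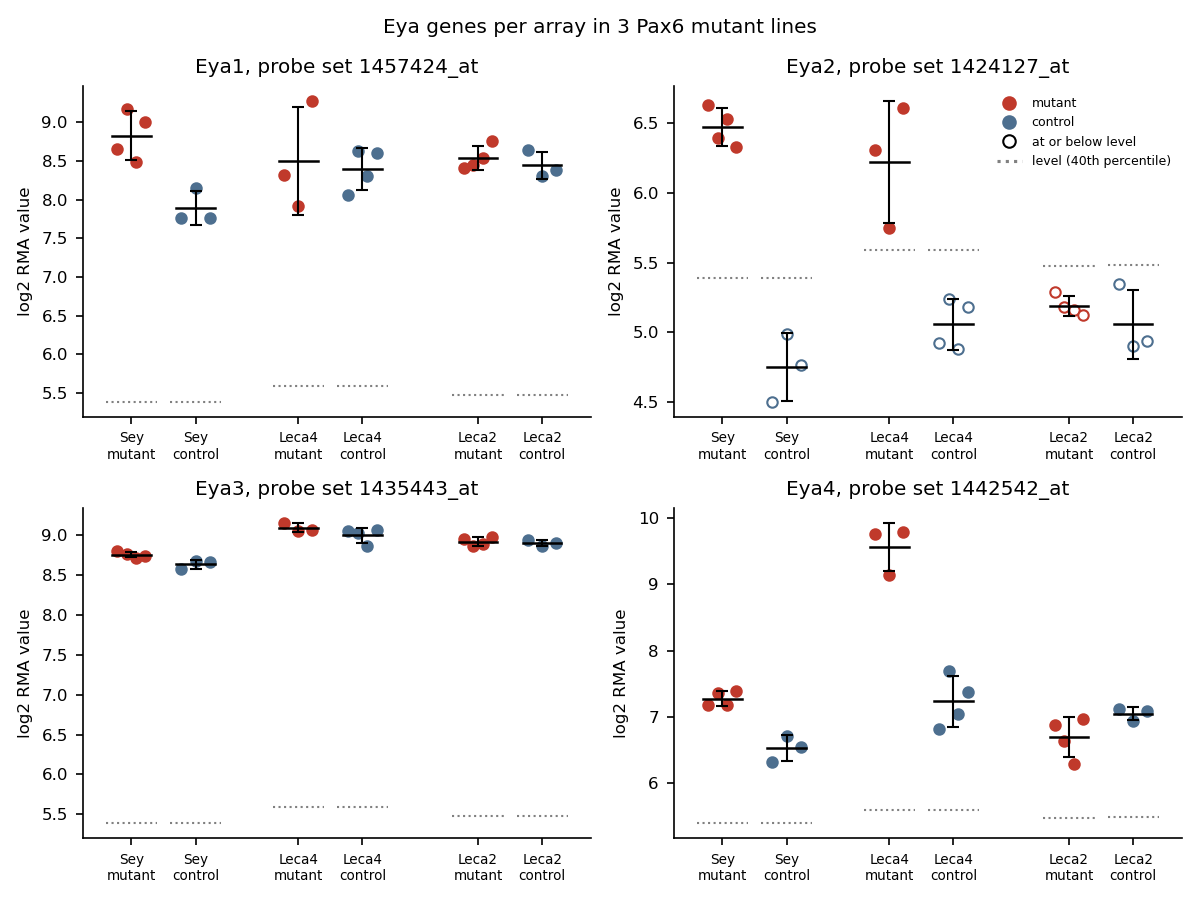
Log2 RMA value per array (y axis) of the 4 Eya genes, by line with mutants (red) left of controls (blue). Bars are means ± SD, dotted lines the level of each group (40th percentile of the array), and open circles arrays at or below it. Eya4 in Leca4 mutants (9.15 to 9.80) lies above every other group, and Eya2 is above the level only in Sey and Leca4 mutants.

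Eya4 gave the largest difference in the family. It was read by probe set 1442542_at, and the gene lies on chromosome 10. In Leca4 mutants it measured 9.76, 9.15 and 9.80, against 6.81, 7.70, 7.04 and 7.37 in Leca4 controls. Every mutant array was higher than every control array, by more than 1 log2 unit between the nearest arrays, and 15.3% of all genes had groups without overlap in this line. The change was 2.34 ± 0.19 (SE), or 5.06-fold, with an adjusted p of 1.93e-07 in limma, the 9th largest of the 469 rises called in Leca4.

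In Sey mutants Eya4 measured 7.17, 7.36, 7.17 and 7.39, against 6.32, 6.71 and 6.55 in Sey controls. The groups did not overlap, as was true of 31.0% of all genes in this line, but the gap was smaller than in Leca4. The change was 0.75 ± 0.19 (SE), or 1.68-fold, with an adjusted p of 0.00826 in limma. This call was lost without control replicate 1 (0.65, adjusted p = 0.0537) and with a term for sex (0.63, adjusted p = 0.0623). The only male Sey mutant, replicate 2, read 7.36 and lay above all 3 male controls. That is 1 array, and every Sey control was male, so sex and mutation are nearly confounded in this line.

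In Leca2 mutants Eya4 measured 6.88, 6.64, 6.29 and 6.97, against 7.11, 6.94 and 7.09 in Leca2 controls. Of the 4 mutant arrays, 3 lay below all controls and the highest lay among them. The difference of -0.35 ± 0.19 (SE) was not called, with an adjusted p of 0.824 and a 95% interval of -0.75 to 0.05.

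The change of Eya4 was larger in Leca4 than in either other line when the difference itself was tested in limma. The Sey change minus the Leca4 change was -1.59 (adjusted p = 0.000596, where 12.8% of all genes were called), and the Leca4 change minus the Leca2 change was 2.69 (adjusted p = 5.8e-06, where 2.38% were called). The Sey change minus the Leca2 change was 1.10 (adjusted p = 0.0183, where 6.69% were called), but kept its call in only 22 of 28 alternatives. It was lost with a term for sex (0.91, adjusted p = 0.184), with the mean of the kept probe sets (0.73, adjusted p = 0.0881), without Sey control replicate 1 (1.00, adjusted p = 0.0610) and without Leca2 control replicate 1 (1.07, adjusted p = 0.0543). With the replicate block it was 1.15 (adjusted p = 0.102). By group mean, Leca4 mutants stood alone at the top. Below them Sey mutants (7.27), Leca4 controls (7.23), Leca2 controls (7.04), Leca2 mutants (6.69) and Sey controls (6.53) each overlapped the next.

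A second Eya4 probe set, 1456665_at, gave the same order in Leca4. It read 7.65, 6.86 and 7.82 in Leca4 mutants, against 5.35, 5.88, 5.70 and 5.47 in controls, of which 2 were at or below the level. The change was 1.84 ± 0.18 (SE), with an adjusted p of 3.07e-06 over the 25140 kept probe sets, of which 4.30% were called. In Sey it read 6.35, 6.46, 6.39 and 6.35 in mutants against 5.82, 6.27 and 5.83 in controls, again without overlap, but the change of 0.42 was not called (adjusted p = 0.132, where 16.6% of probe sets were). In Leca2 the change was 0.05 (adjusted p = 0.995), opposite in sign to the first probe set, where 0.426% of probe sets were called. The Sey change minus the Leca2 change was 0.37 on this probe set and was not called (adjusted p = 0.521).

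The other Eya4 probe sets, 1456647_a_at and 1432461_at, were below the level on all 21 arrays and were not tested. On these low readings, 1456647_a_at read 4.67, 4.58 and 5.09 in Leca4 mutants, against 3.99, 3.97, 3.94 and 3.95 in Leca4 controls. The mutants lay above every control. Groups without overlap were found for 15.3% of all tested genes in this line, and the share among probe sets below the level was not counted. On 1432461_at the Leca4 groups overlapped, with 3.42 to 3.73 in mutants against 3.17 to 3.81 in controls. In Sey the difference was -0.006 on 1456647_a_at and 0.12 on 1432461_at.

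**Figure D2:**
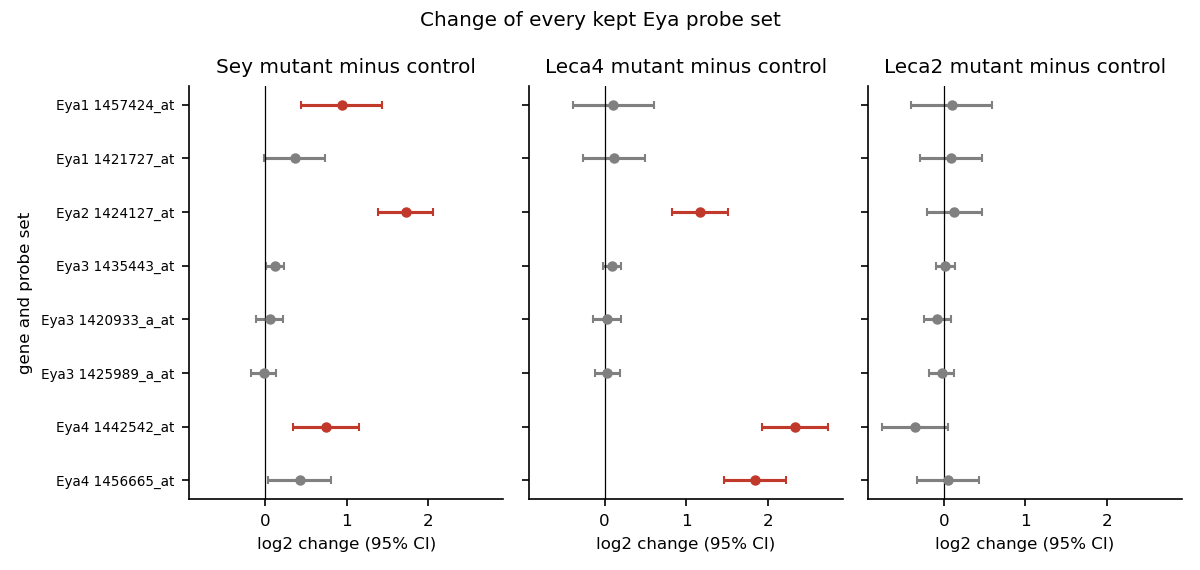
Log2 change, mutant minus control, with 95% interval (x axis) of the 8 kept Eya probe sets (rows) in Sey, Leca4 and Leca2 (panels), in red where the adjusted p over all kept probe sets was under 0.05. Both Eya4 probe sets are called in Leca4 (2.34 and 1.84), 1 of the 2 in Sey, and none in Leca2.

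To show the start of the gene that moved most beside that of the family member that varied least, the promoter windows of Eya4 and Eya3 are printed from RefSeq (GRCm38.p6), from 250 bases before to 50 after the start. The table used held windows for 2 of the 4 genes, Eya3 and Eya4. The Eya4 window is chr10:23349894-23350193 on the minus strand and the Eya3 window chr4:132638796-132639095 on the plus strand, and capitals mark CpG dinucleotides.
Eya4: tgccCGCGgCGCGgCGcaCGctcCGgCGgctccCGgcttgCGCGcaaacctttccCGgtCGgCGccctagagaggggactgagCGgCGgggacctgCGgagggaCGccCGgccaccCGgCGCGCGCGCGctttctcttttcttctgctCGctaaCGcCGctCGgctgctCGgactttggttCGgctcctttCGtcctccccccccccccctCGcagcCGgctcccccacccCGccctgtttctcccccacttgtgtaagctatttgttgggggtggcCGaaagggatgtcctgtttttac
Eya3: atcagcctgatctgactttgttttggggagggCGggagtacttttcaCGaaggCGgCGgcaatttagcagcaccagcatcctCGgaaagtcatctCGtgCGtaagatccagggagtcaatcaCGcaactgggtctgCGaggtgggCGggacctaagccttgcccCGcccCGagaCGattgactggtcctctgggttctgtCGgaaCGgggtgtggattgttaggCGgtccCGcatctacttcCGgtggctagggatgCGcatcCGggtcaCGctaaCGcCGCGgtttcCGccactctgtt
The Eya4 window is 69.3% G and C with 36 CpG, and 93.8% of all promoters in the table have fewer. The Eya3 window is 59.3% G and C with 25 CpG, more than 81.6% of promoters, and the median promoter has 52.7% and 7. A second Eya4 window, shifted by 53 bases, has 64% and 28. On both strands none of the 3 windows holds TTCACGC, a paired-domain core found in 1.26% of 32851 promoters, or TAAT and ATTA spaced 3 bases apart, a paired homeodomain dimer site found in 0.487%. The sine oculis motif searched, TCANNTTNC, is in 16% of promoters and in none of the 3.

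Eya2 was at or below the level everywhere except in Sey and Leca4 mutants. Its 1 probe set, 1424127_at, stands for a gene on chromosome 2, which also carries Pax6, with 668 protein-coding genes between them in GRCm38.p6. In Sey mutants it measured 6.63, 6.39, 6.53 and 6.33, against 4.50, 4.99 and 4.76 in Sey controls. All mutants were above the level of their array and all controls at or below it, so the rise is given as a bound. Eya2 was at least 2.12-fold higher in Sey mutants (log2 difference 1.72 ± 0.16, SE; adjusted p = 3.07e-07 in limma). Eya2 entered the test only through the mutant arrays of Sey and Leca4, so this p and that in Leca4 describe the values and add no support.

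In Leca4 mutants Eya2 measured 6.31, 5.75 and 6.61, against 4.93, 5.24, 4.88 and 5.18 in Leca4 controls. The lowest mutant array, replicate 2, was only just above its own level of 5.60. The groups did not overlap, as was true of 15.3% of all genes in this line, and every control was at or below the level of 5.58 to 5.60. Eya2 was at least 1.55-fold higher (log2 difference 1.17 ± 0.16, SE; adjusted p = 0.000147 in limma). A rise called in both Sey and Leca4 was found for 86 genes, or 0.621% of those tested, and Eya2 and Eya4 were among them.

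In Leca2 mutants Eya2 measured 5.29, 5.18, 5.16 and 5.12, against 5.35, 4.90 and 4.94 in Leca2 controls. All 7 arrays were at or below the level, the groups overlapped, and no fold is given (log2 difference 0.13, adjusted p = 1). The Sey change exceeded the Leca2 change by 1.59 (adjusted p = 0.000219 in limma) and the Leca4 change exceeded it by 1.04 (adjusted p = 0.0177), both from values that include arrays below the level. The second of these was lost without Leca2 control replicate 1 (0.89, adjusted p = 0.0664) and with the replicate block (1.06, adjusted p = 0.139). Eya2 entered the test only through Sey and Leca4 mutant arrays, so the p-values of these differences describe the values and add no support.

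The changes of Eya2 in Sey and Leca4 were not separated. The Sey change minus the Leca4 change was 0.55 (adjusted p = 0.121), with a 95% interval of 0.08 to 1.03. Leca4 mutant replicate 3, the highest Leca4 array for Eya2, bore on this value. Without it the difference was 0.75 and was called (adjusted p = 0.0269). Over all arrays, mutant means were 6.47 in Sey and 6.22 in Leca4, and control means 4.75 and 5.06. Every control array was at or below its level, which was 5.37 to 5.42 in Sey and 5.58 to 5.60 in Leca4. Background readings and any difference in normalization between lines thus enter this comparison. By mean, Sey and Leca4 mutants overlapped at the top, and a gap separated both from the 4 groups at or below the level.

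Eya1 rose in Sey mutants. It is on chromosome 1, and probe set 1457424_at read 8.65, 9.17, 8.49 and 9.00 in Sey mutants, against 7.76, 8.15 and 7.77 in Sey controls. Every mutant array was above every control array, and 31.0% of all genes had groups without overlap in this line. The change was 0.94 ± 0.23 (SE), or 1.92-fold, with an adjusted p of 0.00701 in limma, the 120th largest of 1488 called rises. With a term for sex it was 0.73 and no longer called (adjusted p = 0.0672). The only male mutant read 9.17, above all 3 male controls, but 1 array cannot separate sex from mutation. The second kept probe set, 1421727_at, had a change of 0.36 (adjusted p = 0.199), with values between 5.42 and 6.19 on the Sey arrays.

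In Leca4 mutants Eya1 measured 8.32, 7.91 and 9.27, against 8.06, 8.62, 8.31 and 8.60 in Leca4 controls. The mutants spread on both sides of the controls, with 1 above all of them and 1 below. The change was 0.11 ± 0.23 (SE; adjusted p = 0.872), with a 95% interval of -0.39 to 0.60. Without Leca4 mutant replicate 3 it was -0.28, and without Leca4 control replicate 1 it was -0.01, so its sign rests on single arrays.

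In Leca2 mutants Eya1 measured 8.41, 8.45, 8.54 and 8.76, against 8.64, 8.31 and 8.39 in Leca2 controls. The groups overlapped, and the change was 0.09 ± 0.23 (SE; adjusted p = 1), with a 95% interval of -0.40 to 0.59. On 1421727_at all Leca4 and Leca2 arrays were at or below the level, and 1443117_at was below it on all 21.

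The Eya1 change was not shown to be larger in Sey than in the other lines. The Sey change minus the Leca4 change was 0.83 (adjusted p = 0.109) and minus the Leca2 change 0.84 (adjusted p = 0.154), although both 95% intervals lay above 0 (0.14 to 1.53 and 0.15 to 1.54). Without Leca4 mutant replicate 3 the first was 1.22 and was called (adjusted p = 0.00381). The Leca4 change minus the Leca2 change was 0.01 (adjusted p = 0.994). Ordered by mean, all neighbouring groups overlapped, with Sey mutants highest (8.83) and Sey controls lowest (7.89).

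Eya3, on chromosome 4, varied least. Probe set 1435443_at read 8.80, 8.76, 8.71 and 8.74 in Sey mutants, against 8.57, 8.68 and 8.66 in Sey controls. The mutants lay just above the controls without overlap, and 31.0% of all genes had groups without overlap in Sey. The change of 0.12 ± 0.05 (SE) was not called (adjusted p = 0.130, 95% interval 0.01 to 0.23). In Leca4 mutants it read 9.16, 9.05 and 9.06, against 9.05, 9.03, 8.86 and 9.06 in controls, a change of 0.09 (adjusted p = 0.388). In Leca2 mutants it read 8.95, 8.86, 8.89 and 8.97, against 8.93, 8.86 and 8.90 in controls, a change of 0.02 (adjusted p = 1).

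Groups of Eya3 ordered by line, Leca4 above Leca2 above Sey, with mutants above controls in each line. Leca4 and Leca2 neighbours overlapped, and Leca2 controls, Sey mutants and Sey controls were separated from each other. The array medians had the same order of lines, and how many other genes share it was not counted. The order is therefore not shown to be particular to Eya3. The other kept probe sets gave changes of 0.05, 0.03 and -0.08 (1420933_a_at) and of -0.02, 0.03 and -0.03 (1425989_a_at) in Sey, Leca4 and Leca2, none of them called. The fourth, 1458961_at, was below the level on every array. The 95% intervals of the Eya3 change on 1435443_at reached at most 0.23, which bounds a rise in any line.

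Within groups, 2 of 6 pairs of Eya genes, both with Eya4, varied together between arrays. Each array was taken as its deviation from its group mean, and the pairs were compared over the 21 arrays, with values permuted within groups 100000 times. Eya1 and Eya4 had a Pearson r of 0.66 (permutation p = 0.00681, adjusted over the 6 pairs 0.0287) and a Spearman rho of 0.63 (permutation p = 0.0118, adjusted 0.0353). Eya2 and Eya4 had an r of 0.62 (permutation p = 0.00956, adjusted 0.0287) and a rho of 0.64 (permutation p = 0.0103, adjusted 0.0353). Eya2 was above the level on only 7 of the 21 arrays, the Sey and Leca4 mutants, so this pair rests largely on readings near background. In Sey mutants the deviations of Eya2 (0.16, -0.08, 0.06 and -0.14) and Eya4 (-0.10, 0.09, -0.10 and 0.11) had opposite signs. In Leca4 mutants they had the same signs. Without the 2 arrays whose Eya1 deviation was farthest from the median, r of Eya1 and Eya4 was 0.60, and without the 2 farthest for Eya2, r of Eya2 and Eya4 was 0.49.

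The other 4 pairs did not pass. Eya1 and Eya2 had an r of 0.63 (permutation p = 0.0621, adjusted 0.124), which was 0.28 without the 2 arrays farthest for Eya1 and so rested on them. The pairs with Eya3 had an r of 0.16 with Eya1, 0.43 with Eya2 and 0.46 with Eya4 (permutation p adjusted 0.569, 0.133 and 0.173). Leca4 mutant replicate 3 was the highest and replicate 2 the lowest of its group for Eya1, Eya2 and Eya4 alike. Replicate 3 was the only female Leca4 mutant, and the only female Leca4 control, replicate 2, was also the highest of its group for Eya1 (8.62), Eya2 (5.24) and Eya4 (7.70). In other groups the order by sex was mixed. The only male Sey mutant was the highest of its group for Eya1 (9.17). The male Leca2 mutants were the highest of their group for Eya2 and the lowest for Eya1. The part of sex in these correlations was not tested, and how often other gene pairs vary together as much was not measured. Lhx9, Frzb, Crabp2 and Hopx, picked below for their likeness to Eya genes, had the same order of Leca4 mutant replicates. The correlations are therefore not shown to be particular to Eya genes. Without the Leca4 mutants r was 0.67 for Eya1 and Eya4, 0.48 for Eya2 and Eya4 and 0.32 for Eya1 and Eya2.

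**Figure D3:**
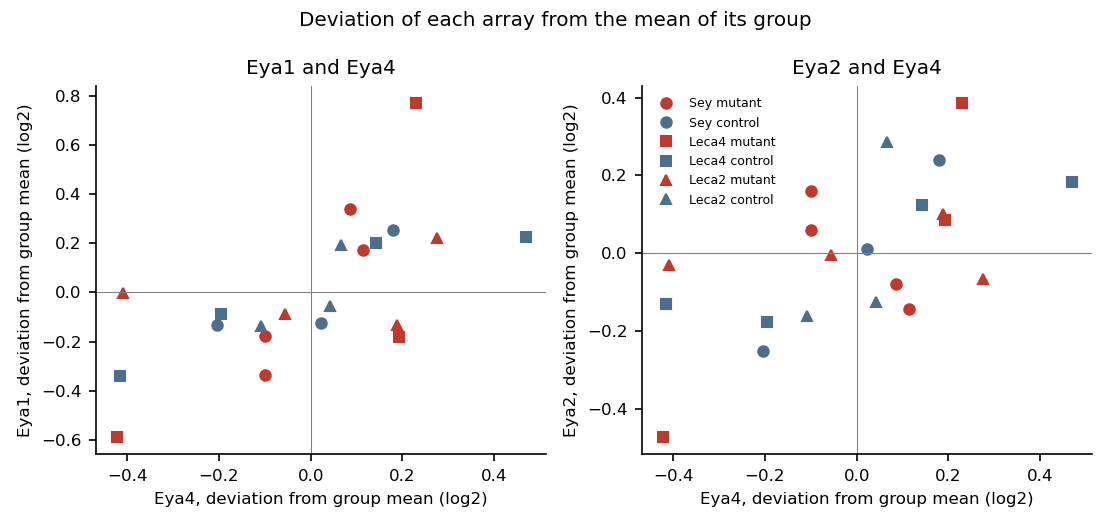
Deviation of each array from its group mean, in log2, with Eya4 on the x axis and Eya1 (left) or Eya2 (right) on the y axis, mutants in red and controls in blue, 1 point per array. The Leca4 mutants (red squares) include the lowest point of both genes and the highest (Eya1 -0.59 and 0.77, Eya2 -0.47 and 0.39).

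The sine oculis and Dach genes, whose products work with Eya proteins, were described as a list. Six2, Six3, Six4, Six5, Dach1 and Dach2 were tested, and Six6 was at or below the level on all arrays (highest 4.06). Of the 6 tested, 1 rose in Sey, 0 in Leca4 and 0 in Leca2, and 0 fell, where 20.2%, 5.62% and 0.477% of all genes were called in either direction. The median change was 0.11, 0.02 and -0.07 in the 3 lines, beside 0.00, 0.01 and 0.01 over all genes.

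The gene that rose was Dach2, a Dachshund family cofactor. It read 6.94, 6.88, 6.96 and 6.78 in Sey mutants, against 6.44, 6.72 and 6.30 in Sey controls. The groups did not overlap, as was true of 31.0% of all genes in this line. The change was 0.40 ± 0.10 (SE; adjusted p = 0.00824 in limma). In Leca4 and Leca2 its differences were 0.03 and -0.07, neither called.

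Dach1, the other Dachshund gene, differed by 0.09, 0.42 and -0.12 in Sey, Leca4 and Leca2, none of them called (adjusted p = 0.811, 0.276 and 1). Among the sine oculis homeobox genes, the Sey, Leca4 and Leca2 differences, none of them called, were 0.09, -0.04 and 0.03 for Six2, 0.12, -0.06 and -0.08 for Six4 and 0.21, 0.05 and 0.12 for Six5. Six3, an eye-field and forebrain repressor, gave -0.13, 0.01 and -0.11 on its brightest probe set and 0.60 (adjusted p = 0.0534) in Sey on another, 1427523_at, so its probe sets disagreed in sign.

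**Figure D4:**
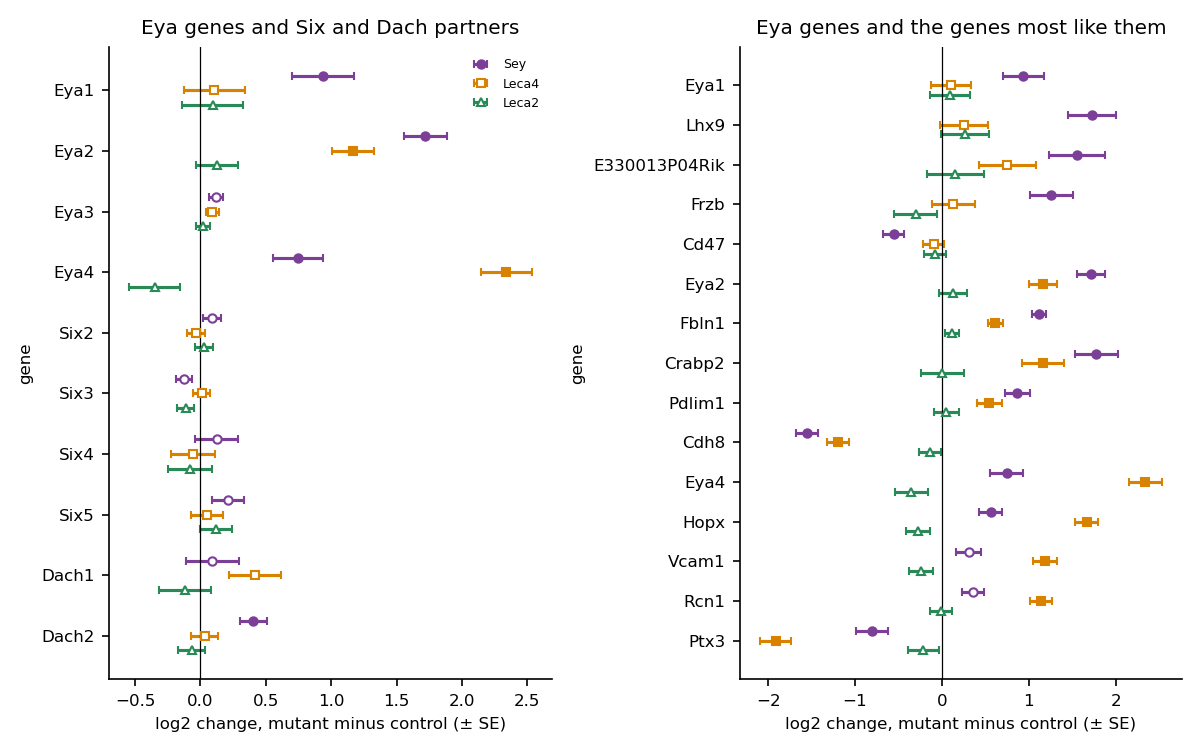
Log2 change, mutant minus control, ± SE (x axis) for Sey (circles), Leca4 (squares) and Leca2 (triangles). Eya genes are shown with 6 sine oculis and Dach genes (left) and with the genes of highest and lowest r over arrays (right). Symbols are filled where the adjusted p was under 0.05, and in the left panel the filled symbol outside the Eya genes is Dach2 in Sey (0.40).

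Other lists around the Eya network were described by counts, to be read against the 20.2% of all genes called in Sey (10.7% as higher), 5.62% in Leca4 (3.39% as higher) and 0.477% in Leca2. Of 9 tested eye-field factors, 2 rose and 1 fell in Sey, among them Vax1 (2.66 ± 0.28, SE), a ventral optic and forebrain homeobox gene. In Leca4 1 of the 9 rose and 0 fell, Mitf, the melanocyte and pigmented epithelium regulator, which changed by 1.34 ± 0.23 (SE; adjusted p = 0.00128 in limma). In Leca4 mutants Mitf read 7.24, 6.70 and 8.25, against 5.74, 6.11, 6.16 and 6.20 in controls, with replicate 3 highest and replicate 2 lowest as for Eya1, Eya2 and Eya4. In Leca2 0 of the 9 were called.

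Of 9 tested genes reported as Eya-Six targets in other tissues, 1 rose and 2 fell in Sey, 2 rose in Leca4 and 1 fell in Leca2, beside 20.2%, 5.62% and 0.477% of all genes called. The proneural gene Neurog1 was the member called in all 3 lines, with changes of -2.67 in Sey, 1.34 in Leca4 and -1.43 in Leca2. The Eya4 differences in the same lines were 0.75, 2.34 and -0.35 (the last not called). The signs were opposite in Sey and alike in Leca4 and Leca2, and a relation between Eya4 and Neurog1 was not tested. Of 7 tested Eya binding partners and phosphatase substrates, 2 rose in Sey and 1 fell, among them the histone gene H2ax (0.57), whose product Eya phosphatase acts on, and 0 were called in Leca4 or Leca2. In Sey 20.2% of all genes were called.

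The genes whose pattern was most like each called Eya gene were found by Pearson correlation over the 21 arrays, each value taken minus the control mean of its line. The arrays fall into groups, so r mostly reflects the group differences and is given as a description. For Eya4 these were Hopx (r = 0.97), a homeodomain-only gene expressed in radial glia, Vcam1 (0.97), a cell adhesion molecule, and Rcn1 (0.96), a calcium-binding protein of the endoplasmic reticulum. In Sey, Leca4 and Leca2, Hopx differed by 0.56, 1.66 and -0.27, called in Sey and Leca4. The lowest r was that of Ptx3 (-0.91), a secreted pentraxin, with differences of -0.81, -1.91 and -0.21, called in Sey and Leca4.

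For Eya2 the most alike were Fbln1 (r = 0.97), an extracellular matrix protein, Crabp2 (0.97), a retinoic acid binding protein, and Pdlim1 (0.95), a PDZ and LIM domain protein. Crabp2 differed by 1.78, 1.17 and 0.00 and Fbln1 by 1.12, 0.62 and 0.12 in Sey, Leca4 and Leca2, with the Sey and Leca4 differences called in both. Cdh8, a cadherin of cortical neurons, had the lowest r (-0.97), an opposite pattern, with differences of -1.56, -1.20 and -0.14, called in Sey and Leca4. For Eya1 the most alike were Lhx9 (r = 0.95), a LIM homeobox gene, E330013P04Rik (0.94) and Frzb (0.92), a secreted Wnt antagonist. Cd47 had the lowest r (-0.91). Lhx9 differed by 1.73, 0.26 and 0.26, with the Sey difference called.

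Markers of other cell types moved with some Eya changes, and their part in these was not tested. Of 11 genes of meninges and cranial mesenchyme, 6 were tested and 2, Prrx1 and Crabp2, rose in Sey and in Leca4, where Eya2 and Eya4 rose too. The other 4 were not called in either line. In Leca4, Col1a2 averaged 6.44 in mutants against 6.86 in controls, Col3a1 7.05 against 7.28 and Dcn 6.53 against 6.85, and the median change of the 6 was -0.10, beside 0.33 in Sey and 0.10 in Leca2. The mean of the 11 per array was 5.93 to 6.07 in Sey mutants against 5.63 to 5.76 in controls, 6.10 to 6.14 against 5.92 to 6.23 in Leca4 and 5.96 to 6.06 against 5.82 to 6.04 in Leca2. Twist1 (highest 4.53), Col1a1 (5.65), Lum (5.92), Foxd1 (5.50) and Aldh1a2 (4.52) did not pass the filter on low values.

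In Sey, 8 of 10 ventral telencephalon markers rose and the per-array mean was 9.04 to 9.62 in mutants against 6.79 to 7.10 in controls, while 0 of the 10 were called in Leca4, where Eya4 rose most. For these lists too, 20.2% of all genes were called in Sey (10.7% as higher), 5.62% in Leca4 and 0.477% in Leca2. Diencephalic markers rose for 3 of 5 tested in Sey and fell for 1, and 1 fell in Leca4 and 0 rose. Olfactory epithelium and placode markers rose for 3 of 7 in Sey and fell for 1, with a mean of 7.53 to 7.66 against 7.47 to 7.49, and 0 of 7 were called in Leca4 or Leca2. The olfactory genes that rose included Lhx2 (0.40), which is on the cortex list too. Omp averaged 6.33 in Sey mutants against 6.44 in controls, and Gnal 8.80 against 10.15. Of 7 skeletal muscle genes 4 were at or below the level on all arrays and 0 of 2 tested were called in any line, and likewise 0 of 4 choroid plexus and 0 of 7 endothelium and blood genes. Of 6 lens and retina genes tested, Rlbp1 fell in each line and no other was called. In the cortex list 6 of 9 fell and 2 rose in Sey, and 0 were called in Leca4 or Leca2.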

How the data were processed

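The deposited values were log2 expression values per probe set from 1 Affymetrix array per sample, made by the authors with RMA, per the submitters' processing notes; its version, settings and genome build were not given in the sources used here. Medians are more alike within a line than between lines. The sources used here do not say whether lines were normalized apart. The background of the Sey line differs too, so the source of this difference cannot be told apart. All 21 columns were used, and 0 were left out.

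Of 45101 probe sets, 34945 named 1 gene in the platform table of GEO, and 34741 of these had their symbol in RefSeq GRCm38.p6. The filter kept a probe set that exceeded, on 3 or more arrays, the 40th percentile of that array's non-control probe sets ("the level", 5.37 to 5.60). The kept probe set with the highest mean stood for a gene, which gave 13850 genes. In R 4.3.3, limma 3.58.1 (lmFit, eBayes) fitted 1 model of 6 groups (15 residual and 3.54 prior degrees of freedom), with two-sided p-values, Benjamini-Hochberg adjustment within each contrast and a call at an adjusted p under 0.05. Intervals are 95% intervals of this fit. The pipeline was tested on simulated data.

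Where no array of a group exceeded the level, a fold is a lower bound, the mean of the brighter group over the mean level of the other, a rule chosen after the data were seen. Named genes were the Eya members with all probe sets, the sine oculis and Dach list and up to 3 called members of each other list. For each called Eya gene, the 3 genes with the highest r and the 1 with the lowest were also named. Not all named genes are printed. The 13 lists held 112 genes, 82 of them tested. Members, lists and alternatives were chosen with earlier results of these data known. Promoters were read with Python 3.11.15, and figures were drawn with matplotlib 3.10.9.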

Additional observations from a re-analysis of the deposited data

Results flagged for a closer look

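The change of Eya4 differed between lines in each pair tested, with log2 differences of -1.59 (Sey minus Leca4), 1.10 (Sey minus Leca2) and 2.69 (Leca4 minus Leca2). The change of Eya2 differed between Sey and Leca2 by 1.59 and between Leca4 and Leca2 by 1.04. These 5 differences passed an adjusted p under 0.05 in limma, and no explanation was tested. Those of Eya2 describe its values only, since Eya2 passed the filter through Sey and Leca4 mutants and not through Leca2 arrays. Of the 5, the Eya4 difference of Sey minus Leca2 kept its call in 22 of 28 alternatives and the Eya2 difference of Leca4 minus Leca2 in 24 of 26. The Eya4 probe set 1456647_a_at, which lies below the level on every array and was used in no test, had its lowest Leca4 mutant array 0.589 log2 units above its highest Leca4 control array. How many other untested probe sets show such a gap was not counted.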

How the results depend on the processing

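The Eya4 change in Leca4 (1.84 to 2.55 over 21 alternatives) kept its direction and its call under every alternative that tested it, as did the Eya4 differences between Leca4 and the other lines. The Eya2 changes were 1.59 to 1.84 in Sey and 0.97 to 1.40 in Leca4, which describes them only, since Eya2 passed the filter through these mutants and had to differ. For the values below that lost a call or turned their sign, the cause was not tested.

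With the replicate block, the Eya4 change in Sey was 0.71 (adjusted p = 0.0807), and the Eya genes called were 1 for Sey minus Leca2 and 1 for Leca4 minus Leca2, in place of 2 each. All genes called were then 450 in Leca4, 28 in Leca2, 1015 for Sey minus Leca4, 559 for Sey minus Leca2 and 148 for Leca4 minus Leca2, against 779, 66, 1778, 927 and 329. Deviations of same-numbered mutant and control arrays correlated with r between -0.44 and 0.34, and not every array correlated best with its own number, so the samples share only a number.

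With a term for sex, the Eya1 and Eya4 changes in Sey were 0.73 and 0.63, and 1 Eya gene each was called in Sey and for Sey minus Leca2. The Eya1 difference of Leca4 minus Leca2 was -0.15, and all genes called for Sey minus Leca2 were 293. Under the stricter filter, which drops Eya2, 1 Eya gene was called in Leca4, for Sey minus Leca2 and for Leca4 minus Leca2.

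On single probe sets the Sey changes were 0.36 for Eya1, 0.42 for Eya4 and -0.020 for Eya3. The Leca2 changes were -0.080 and -0.026 for Eya3 and 0.048 for Eya4, and the Eya3 difference of Sey minus Leca4 was -0.051. With the mean of the probe sets of a gene, Eya3 gave -0.029 in Leca2 and -0.0018 for Sey minus Leca4, and 1 Eya gene was called for Sey minus Leca2.

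With array weights the Eya1 difference of Leca4 minus Leca2 was -0.0016, and all genes called were 121 in Leca2 and 499 for Leca4 minus Leca2. With the 129 S6 controls pooled, Eya3 gave -0.038 in Leca2 and -0.017 for Sey minus Leca4, Eya1 gave -0.035 for Leca4 minus Leca2, and 236 and 5002 genes were called in Leca2 and for Leca4 minus Leca2. That setting also called the Eya3 difference of Leca4 minus Leca2 (0.17, adjusted p = 0.0356). With pooled controls, the controls cancel from Leca4 minus Leca2. Its values and the 5002 genes thus compare the mutants of the lines directly, and include any difference in normalization between lines. Fits of only the groups compared called the Eya1 difference of Sey minus Leca2 (0.84, adjusted p = 0.0363), with 400 genes called in Leca4 and 27 in Leca2, and at an adjusted p under 0.10, 1411 and 611 genes were called for Sey minus Leca2 and Leca4 minus Leca2.

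Leaving out each array in turn, the Eya4 change in Sey was 0.65 to 0.84 and the Eya1 change in Leca4 -0.28 to 0.40. The Eya genes called were 2 to 3 in Sey, 2 in Leca4, 0 in Leca2, 1 to 3 for Sey minus Leca4, 1 to 2 for Sey minus Leca2 and 1 to 2 for Leca4 minus Leca2. The Eya1 difference of Leca4 minus Leca2 was -0.37 to 0.31 and the Eya3 difference of Sey minus Leca4 -0.0058 to 0.0725. Low signal limits Eya2, which only a bound describes in the controls.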
